A study of Homo sapiens with 6 samples.

Results

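The genes described here are 10 members of the cAMP-dependent protein kinase (PKA) system, out of 20014 genes in the deposited table: 8 A-kinase anchoring protein (AKAP) genes, AKAP1, AKAP7, AKAP8, AKAP9, AKAP10, AKAP11, AKAP12 and AKAP13, and 2 genes of the kinase itself, PRKAR1A and PRKACA. They were chosen by symbol, with their difference between STUB1 knockout and control already known, so that difference is given as a description. Their calls in a fit across all genes are counted once beside those of all genes, and support nothing. The RNA came from HaCaT, a line of immortalized human keratinocytes, and the cells had no further treatment. The knockout group (3 libraries) carried a lentiviral CRISPR vector with a guide against STUB1, which encodes a ubiquitin ligase that works with chaperones, and the control group (3 libraries), labelled wild type, carried the same kind of vector with a control guide. After sorting, colonies grown in multiwell plates were screened by immunoblot for the STUB1 protein. Whether libraries of the same group are different clones or cultures is not stated in the labels, and the p-values given here therefore cover library-to-library spread that may be technical.

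PKA is held inactive as a complex of a regulatory subunit dimer with catalytic subunits, and cyclic AMP releases the catalytic subunits by binding the regulatory ones. AKAPs bind the regulatory dimer through a short amphipathic helix and place the kinase at a membrane, organelle or chromatin, often beside phosphatases and other kinases. In keratinocytes, cAMP signalling is known from the responses to prostaglandins and other ligands of Gs-coupled receptors.

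Values are FPKM, which divides fragments by the length of the transcript and by library size. From 11200 to 11292 genes per library had at least 1 FPKM. On the log2(FPKM + 1) scale, libraries of the knockout correlated at Pearson's r of 0.996 to 0.999, controls 1 and 2 at 0.998, and control 3 with the other controls at 0.986 to 0.988, across genes, which are not independent replicates. The level of control 3 relative to the mean of all libraries fell by 0.104 log2 units per doubling of exonic length, against values between -0.00939 and 0.0349 in the other 5 libraries. STUB1 measured 21.6, 24.7 and 23.2 FPKM in the knockout and 37.8, 41.9 and 52.7 FPKM in the control, so the groups did not overlap. Of 8 keratinocyte markers, KRT14 and KRT17 were under 1 FPKM in every library, and the summed list ranged from 615.3 to 640.5 FPKM among knockout libraries and from 383.8 to 485.7 FPKM among controls. All 7 fibroblast markers were under 1 FPKM in every library (knockout sums 0.447 to 0.562, control sums 0.44 to 0.535), with DCN at 0. Melanocyte markers summed to 6.48 to 7.66 and 6.77 to 7.41 FPKM, with TYR at 0 and PMEL giving most of it, and leukocyte markers to 22.8 to 25.6 and 21.5 to 22.5 FPKM, nearly all from CD68, with PTPRC under 1 FPKM. The part of these levels in the results was not tested.

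The clearest contrast was at AKAP12, which was listed at 0 in every knockout library. AKAP12 (gravin) is a large scaffold at the plasma membrane that holds PKA and protein kinase C. AKAP7, a small membrane-attached anchoring protein, was also low in the knockout. Which annotated starts of AKAP12 and AKAP7 these cells use was not measured. Promoter windows of these 2 genes are shown here as the sequence upstream of annotated starts. They are the 250 bases before each RefSeq start (GRCh38.p14), all on the plus strand, with capitals marking the GC box GGGCGG, the CCAAT box CCAAT and the core of the cAMP response element TGACG, each searched on both strands. RefSeq gives 3 starts for AKAP12, whose windows are chr6:151239717-151239966, chr6:151325281-151325530 and chr6:151341456-151341705, and the window of the first AKAP7 start is chr6:131135217-131135466.
AKAP12 start 1: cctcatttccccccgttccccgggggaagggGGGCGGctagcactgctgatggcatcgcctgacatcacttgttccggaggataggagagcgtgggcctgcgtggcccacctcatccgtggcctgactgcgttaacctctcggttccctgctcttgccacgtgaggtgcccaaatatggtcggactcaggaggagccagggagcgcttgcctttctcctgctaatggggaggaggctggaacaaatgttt
AKAP12 start 2: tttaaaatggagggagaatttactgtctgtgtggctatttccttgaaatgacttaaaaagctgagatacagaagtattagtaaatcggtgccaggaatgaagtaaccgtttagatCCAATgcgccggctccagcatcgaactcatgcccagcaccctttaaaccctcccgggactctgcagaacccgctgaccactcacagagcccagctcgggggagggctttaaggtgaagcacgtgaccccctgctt
AKAP12 start 3: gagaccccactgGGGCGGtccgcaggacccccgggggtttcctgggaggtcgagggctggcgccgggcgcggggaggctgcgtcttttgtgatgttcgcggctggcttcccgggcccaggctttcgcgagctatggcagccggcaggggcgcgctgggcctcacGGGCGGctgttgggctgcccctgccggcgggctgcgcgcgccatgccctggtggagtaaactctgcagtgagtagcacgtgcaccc
AKAP7 start 1: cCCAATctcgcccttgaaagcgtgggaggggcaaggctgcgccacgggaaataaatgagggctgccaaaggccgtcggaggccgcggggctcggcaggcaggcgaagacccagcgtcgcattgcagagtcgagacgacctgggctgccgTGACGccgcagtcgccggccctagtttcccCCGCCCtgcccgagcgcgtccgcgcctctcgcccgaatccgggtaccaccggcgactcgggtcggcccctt

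The AKAP12 windows held 13, 9 and 25 CpG dinucleotides and the first AKAP7 window 32. The median of 35116 RefSeq windows of this length was 11. RefSeq also gives a second AKAP7 start, whose window, chr6:131250154-131250403, is not printed. That window held 4 CpG dinucleotides, below the median, and none of the motifs marked in capitals. None of the AKAP12 windows held the core TGACG, which 21.2% of all windows held, and the first window of AKAP7 held 1. GC boxes stood in AKAP12 starts 1 and 3 and in the first AKAP7 window, against 42.6% of all windows. All 10 genes had a RefSeq window, 22 in total. Of these, 9 held TGACG, 14 held GGGCGG and 7 held CCAAT, the last of which 32.0% of all windows held. The full cAMP response element TGACGTCA, in which the core reads on both strands, occurred in 1.65% of all windows and in 1 of the 22. It stood upstream of the third PRKAR1A start, beginning 49 bases before that start, in the stretch chr17:68512370-68512399 printed below. The window of the second start ends at 68512378, ahead of the element, and the gene begins at 68511780 in GENCODE 29. The element thus lies inside the annotated gene.
PRKAR1A element in capitals: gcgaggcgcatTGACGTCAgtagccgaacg

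AKAP12 (ENSG00000131016) lies on chromosome 6 at 151239999 to 151358557 (GRCh38). It measured 2.94, 3.46 and 2.46 FPKM in controls 1 to 3 and 0 in knockouts 1, 2 and 3. The libraries of the 2 groups were thus fully apart, and no fold change is given against a group listed at 0. Among 11053 genes with at least 1 FPKM in every control library, AKAP12 was the only 1 at 0 in all 3 knockout libraries. With a bound of 0.1 FPKM in every control, 3 genes were at 0 in all knockout libraries, AKAP12 among them. Over the whole deposited table, 0 genes were at 0 in every control library and at least 1 FPKM in every knockout library. Values above 0 reached down to 0.002 FPKM in each knockout library among 1210 genes with 8000 to 9500 exonic bases, a range that includes the 8741 exonic bases of AKAP12. Of 868 other genes with a control mean of 2.4 to 3.5 FPKM, the lowest knockout mean was 1.03% of control, at CDA, the enzyme cytidine deaminase. GENCODE 29 lists 4 coding transcripts of AKAP12, which begin at 4 positions and share 6089 bases, and all 4 contain its longest exon of 5042 bases. In bulk RNA, fewer cells expressing a gene and less RNA per cell cannot be told apart.

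**Figure D1:**
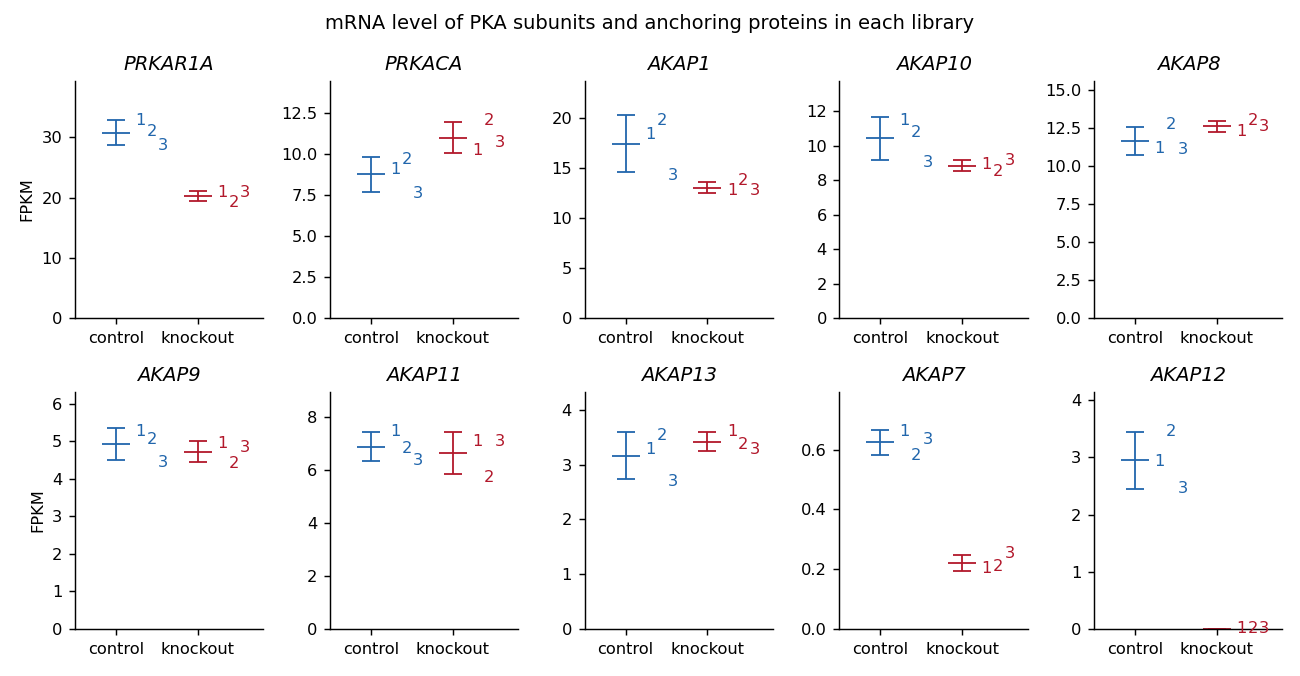
FPKM of each gene (vertical axes from 0, scaled per gene) in control and knockout libraries. Numerals are the replicate numbers of single libraries, bars are the mean ± SD (n = 3). AKAP12 sits at 0 in all 3 knockout libraries, and AKAP7, AKAP1 and PRKAR1A have all 3 knockout libraries under the lowest control.

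AKAP7 (chromosome 6 at 131135666 to 131283535) was the least abundant of the genes in the control. It measured 0.662, 0.580 and 0.636 FPKM in controls 1 to 3 and 0.203, 0.210 and 0.252 FPKM in knockouts 1 to 3. Every knockout library was lower than every control library, and the knockout mean of 0.222 ± 0.0265 FPKM (SD, n = 3) was 35.4% of the control mean of 0.626 ± 0.0419 FPKM (SD, n = 3). At under 1 FPKM on average it did not enter the fit across genes.

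For both kinase subunits the groups did not overlap, with the knockout below the control for PRKAR1A and above it for PRKACA. Of all tested genes, 25.3% had the knockout below every control and 20.4% had it above, so nothing is read from this. PRKAR1A, on chromosome 17 at 68511780 to 68551319, encodes the regulatory subunit RI-alpha, which restrains the catalytic subunits. It measured 32.8, 30.9 and 28.7 FPKM in controls 1 to 3 and 20.8, 19.3 and 20.8 FPKM in knockouts 1 to 3. The groups did not overlap, and the knockout mean was 65.8% of control (log2 difference -0.58, SE 0.0760, on the log2(FPKM + 1) scale used for all log2 values here). PRKACA, on chromosome 19 at 14091688 to 14118084, encodes the main catalytic subunit. Its values were 9.05, 9.65 and 7.55 FPKM in controls 1 to 3 and 10.2, 12.0 and 10.7 FPKM in knockouts 1 to 3. Here every knockout library was above every control, and the knockout mean was 125.3% of control (log2 difference 0.30, SE 0.10). Without control 3, the lowest of the controls for PRKACA, that figure was 117.2%, and a correction for GC content and exonic length took the log2 difference to 0.18.

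Summed over regulatory subunits (PRKAR1A, PRKAR1B, PRKAR2A and PRKAR2B, the last at 0 in every library), knockouts 1 to 3 had 44.6, 43.8 and 43.9 FPKM and controls 1 to 3 had 53.9, 53.4 and 49.7 FPKM. The catalytic subunits PRKACA and PRKACB together had 16.9, 17.5 and 16.8 FPKM in the knockout and 16.1, 16.8 and 14.0 FPKM in the control. The ratio of regulatory to catalytic mRNA was therefore 2.65, 2.51 and 2.61 in knockouts 1 to 3 and 3.35, 3.18 and 3.54 in controls 1 to 3, without overlap. These sums hold PRKAR1A and PRKACA, which were chosen with this contrast known, so the ratio is a description. It was not recomputed after the GC and length correction. PRKAR1A made up 44.0% to 47.4% of regulatory subunit mRNA in knockout libraries and 57.8% to 60.8% in controls. It stayed the most abundant regulatory subunit mRNA in all 6 libraries.

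**Figure D2:**
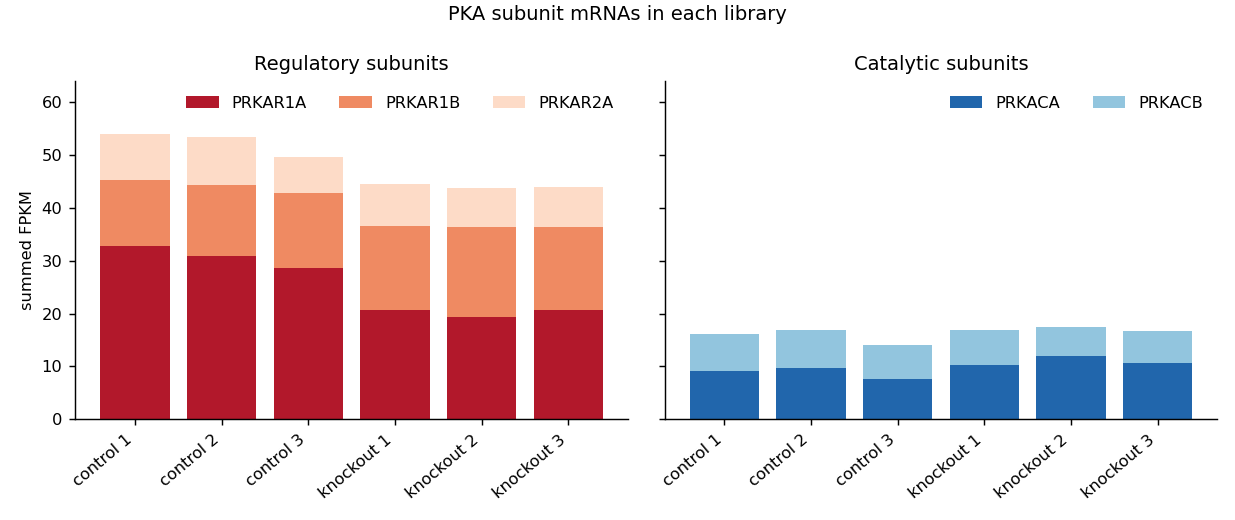
Summed FPKM of the PKA regulatory subunits (left) and catalytic subunits (right) in each library, with 1 bar per library and colours for genes. The regulatory bars reach 49.7 to 53.9 FPKM in the control and 43.8 to 44.6 in the knockout, and PRKAR1A is the part that is shorter in the knockout.

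AKAP1 and AKAP10 place PKA at mitochondria, AKAP1 at the outer membrane and AKAP10, which binds type I and type II regulatory subunits, there and on endosomes. AKAP1, on chromosome 17 at 57085092 to 57121349, measured 18.3, 19.8 and 14.3 FPKM in controls 1 to 3 and 12.7, 13.7 and 12.7 FPKM in knockouts 1 to 3. The groups did not overlap, although control 3 lay close to knockout 2. The knockout mean was 74.8% of control (log2 difference -0.38, SE 0.112), and 68.6% without control 3. AKAP10, on the short arm of chromosome 17 at 19904302 to 19978343, measured 11.4, 10.8 and 9.01 FPKM in controls 1 to 3 and 8.92, 8.47 and 9.14 FPKM in knockouts 1 to 3. Knockout 3 was above control 3, so the groups overlapped. The mean of the knockout was 84.9% of control (log2 difference -0.21, SE 0.0925) and 79.6% without control 3, and the GC and length correction took the log2 difference to -0.11.

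The other 4 scaffolds had knockout means between 90% and 110% of control, and in each of them the groups overlapped. AKAP8, a nuclear protein associated with chromatin, measured 12.6 ± 0.355 FPKM in the knockout and 11.6 ± 0.914 FPKM in the control (SD, n = 3 each), 108.4% of control. AKAP9, a scaffold of the centrosome and Golgi, measured 4.73 ± 0.286 and 4.92 ± 0.427 FPKM, 96.0% of control. AKAP11, which also binds GSK3B and a protein phosphatase, measured 6.64 ± 0.794 and 6.90 ± 0.551 FPKM, 96.3% of control. AKAP13, an exchange factor that activates RhoA, measured 3.41 ± 0.175 and 3.17 ± 0.430 FPKM, 107.9% of control and 100.3% without control 3. For these 4 genes the difference between group means was smaller than 2 times the larger SD, and for AKAP9, AKAP11 and AKAP13 smaller than the larger SD itself. The sign of the log2 difference turned in at least 1 alternative for AKAP9, AKAP11 and AKAP13.

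Control 3 was the lowest control library for 9 of the 10 genes, the exception being AKAP7. Among these 9, exonic length ran from 4296 bases in AKAP8 to 20280 in AKAP13. The part of the length trend of control 3 in their values was not tested beyond the alternatives given in the closing section. The share of all genes lowest in control 3 is not given here, so nothing is read from this count. In a limma fit across 11262 genes with a mean of at least 1 FPKM, 9 of the 10 entered. AKAP12 passed that filter solely through its control libraries, so it had to differ. With Benjamini-Hochberg adjustment at 0.05, 3 were called lower (AKAP12, PRKAR1A and AKAP1), 0 higher and 6 did not pass, where 22.9% of all tested genes were called, 9.58% higher and 13.3% lower. Over all 10 genes, the knockout was below every control in 4 and above every control in 1. Of the 16782 genes above 0 in any library, 37.4% had groups that did not overlap, 20.6% with the knockout below and 16.8% with it above. Among the tested genes these shares were 45.6%, 25.3% and 20.4%. As the genes were chosen with this contrast known, these calls are no test of them and nothing is read from the counts. Without control 3 the fit called 5, with AKAP10 lower and PRKACA higher besides those 3, and without control 2 it called PRKACA higher and did not call AKAP1. PRKACA was also called higher with the replicate number as a block, but not with the block and the GC and length correction together. AKAP1 was also not called without control 1, without the filter, or on leaving out knockout 1, 2 or 3.

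Read in order of control level, PRKAR1A was highest at 30.8 FPKM, above 81.3% of tested genes, followed by AKAP1 (17.5), AKAP8 (11.6), AKAP10 (10.4), PRKACA (8.75), AKAP11 (6.90), AKAP9 (4.92), AKAP13 (3.17), AKAP12 (2.95) and AKAP7 (0.626 FPKM). FPKM is scaled to length, so these levels can be set side by side. PRKAR1A was above AKAP1, AKAP11 above AKAP9, AKAP9 above AKAP13, and AKAP13 above AKAP12 in all 6 libraries. AKAP8 and AKAP10 were not separated in the control, AKAP8 being higher in 2 of 3 libraries. AKAP10 was above PRKACA in 3 of 3 control libraries and in 0 of 3 knockout libraries. AKAP1 was above AKAP8 in every library, but in the knockout their means (13.1 ± 0.584 and 12.6 ± 0.355 FPKM, SD, n = 3) differed by less than the SD of AKAP1. The control means of AKAP13 and AKAP12 differed by less than the SD of either.

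The 4 genes that were below every control in the knockout lie on chromosomes 6 and 17, among other genes that fell. Around AKAP12, 24 tested genes started within 5 Mb, of which 21 were called lower and 0 higher (limma, Benjamini-Hochberg adjusted p under the 0.05 threshold), with a median of 63.5% of control and a range of 50.9% to 88.5%. Within 20 Mb, 87 of 101 genes were called lower and 0 higher, and the lowest of the 101 stood at 48.8% of control. AKAP12, at 0, was below all of these neighbours. The tested genes next to it were expressed in every knockout library. MTHFD1L, a mitochondrial folate enzyme whose end lies 138.1 kb before AKAP12, measured 17.6, 16.9 and 17.1 FPKM in knockouts 1 to 3 and 23.0, 23.8 and 24.2 FPKM in controls 1 to 3. ZBTB2, a zinc finger repressor whose nearer end lies 5.56 kb after AKAP12, measured 12.6, 12.4 and 12.4 FPKM against 18.4, 17.8 and 17.2 FPKM in the same order. These flanking genes stood at 72.8% and 70.1% of control. The 2 genes called with the smallest p within 5 Mb were PPIL4, at 56.5% (adjusted p = 0.000156), and ULBP2, at 50.9% of control (adjusted p = 0.000225, both limma).

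**Figure D3:**
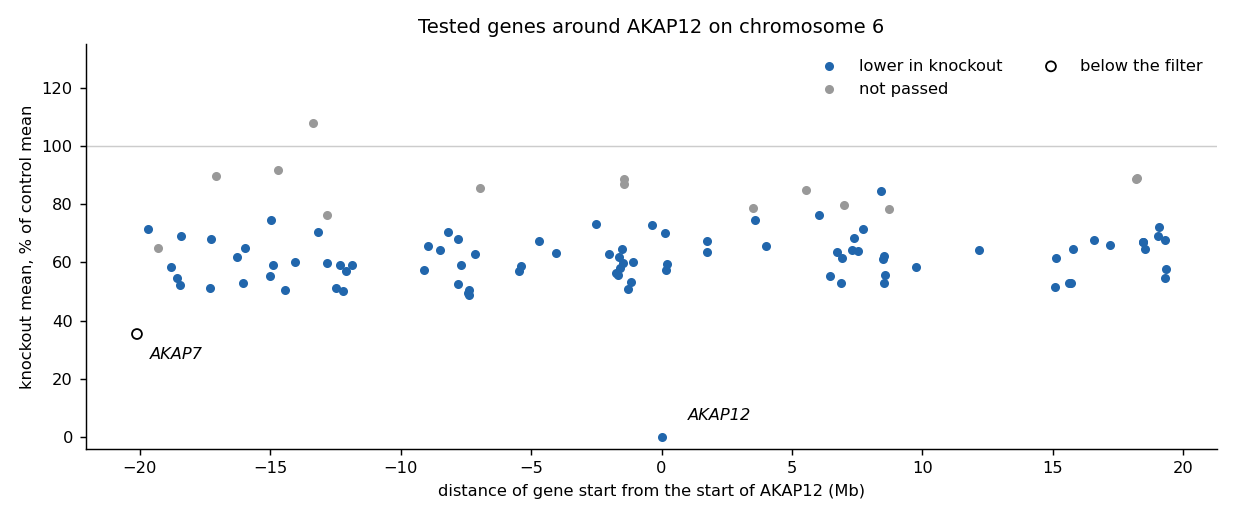
Knockout mean as a percentage of the control mean (vertical axis) for tested genes by the distance of their start from that of AKAP12 in Mb (horizontal axis). Blue points were called lower and grey points did not pass, and the open circle is AKAP7, which was below the filter. AKAP12 lies at 0 and AKAP7, just over 20 Mb away, at 35.4%, and the other points lie between 48.8% and 107.8%.

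AKAP7 lay in the same stretch of chromosome 6, with 20 tested genes within 5 Mb, 16 of them called lower and 0 higher, and a median of 66.6% of control. At 35.4% it was below all 20. Those with the smallest p were TBPL1, the lowest of them at 51.1% (limma adjusted p = 0.000259), and SLC18B1, at 52.2% of control (0.000488). On the long arm of chromosome 17, 43 tested genes started within 5 Mb of AKAP1, of which 29 were called lower and 0 higher, with a median of 76.2% of control. AKAP1, at 74.8%, was in the middle of them, with 21 of the 43 below it. Those with the smallest p were MMD, at 51.8% (limma adjusted p = 0.00066), and PTRH2, at 60.8% of control (0.000684). Within 5 Mb of PRKAR1A, 21 of 32 genes were called lower and 1 higher, with a median of 74.4%, and 10 of the 32 were below its 65.8%. NOL11 stood at 56.5% (limma adjusted p = 0.00019) and C17orf58 at 52.9% of control (0.000378). AKAP1 and PRKAR1A thus lay inside the range of the genes around them, and AKAP7 and AKAP12 below it. The neighbours all average at least 1 FPKM, which AKAP7 does not, so it was not set against genes of its own level. Among genes under 1 FPKM in the pathway lists, PKIB, an inhibitor of the catalytic subunit, and PDE10A, a phosphodiesterase, are also on chromosome 6. They stood at 33.8% (0.048 against 0.143 FPKM) and 45.4% of control (0.018 against 0.040 FPKM), on values close to 0. Genes this low also differed on other chromosomes, with MAP2 (chromosome 2) at 23.6% (0.103 against 0.439 FPKM) and RAPGEF3 (chromosome 12) at 142.6% of control. Whether the low value of AKAP7 goes with its chromosome was not tested.

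Around the remaining genes a smaller share of neighbours was called. Near AKAP10, 11 of 53 were lower and 0 higher, with a median of 90.3% of control against 84.9% for AKAP10. PLD6 and SHMT1 led these at 69.5% and 74.0% of control. AKAP9 was 3.78 percentage points above the median of its neighbours (92.2%), AKAP11 was 1.37 below (97.7%) and AKAP13 5.10 above (102.8%). Of 35 tested genes within 5 Mb of AKAP9, 3 were called higher and 8 lower. Near AKAP11, 0 of 31 were higher and 3 lower, and near AKAP13, 4 of 47 were higher and 2 lower. The share called lower was above the 13.3% of all tested genes near AKAP10 and AKAP9, and below it near AKAP11 and AKAP13. The neighbours with the smallest p near AKAP9 were CDK14 and CROT, higher at 212.2% and 140.0% of control. Near AKAP11 they were NUFIP1 and WBP4, lower at 70.1% and 75.7%, and near AKAP13 TM6SF1 and HDGFL3, lower at 52.2% and 75.6%. AKAP8 and PRKACA are both on the short arm of chromosome 19, where their windows overlap. There 16 of 176 genes within 5 Mb of AKAP8 were called higher and 2 lower, and 17 of 185 within 5 Mb of PRKACA were called higher and 2 lower. Of all tested genes, 9.58% were called higher and 13.3% lower, so the share called higher in these windows was not above that of all genes. The medians were 109.6% and 109.7% of control, so AKAP8 (108.4%) was at the level of its neighbours and PRKACA (125.3%) was above 157 of 185. TMEM38A and PIK3R2, which lie in both windows, were called higher at 196.9% and 153.7% of control.

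**Figure D4:**
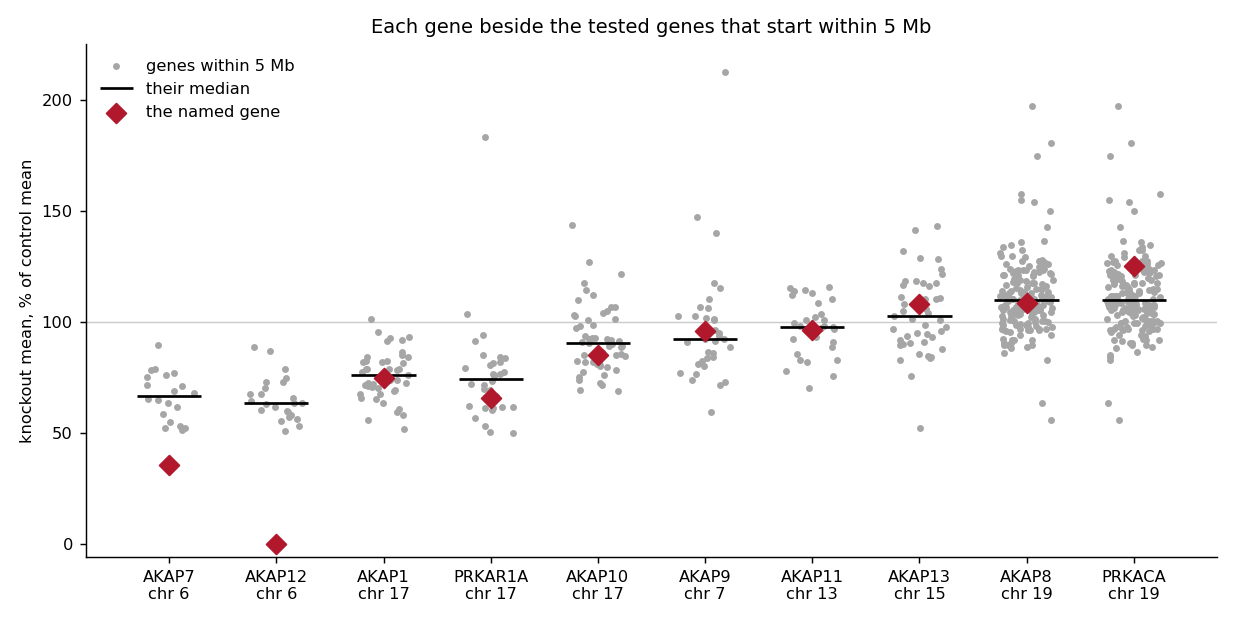
Knockout mean as a percentage of the control mean for each named gene (red diamonds), for the tested genes that start within 5 Mb of it (grey points) and their median (black lines), with genes ordered by chromosome group. AKAP12 at 0 and AKAP7 at 35.4% lie below all of their neighbours, while AKAP1 at 74.8% lies near its neighbours' median of 76.2%.

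Other genes of the pathway were counted by role in 10 lists, 111 genes together, of which 60 were tested. Of these, 7 rose, 11 fell and 42 did not pass (limma, Benjamini-Hochberg), which is 30% called against 22.9% of all tested genes, with a median log2 difference of -0.01 in the lists and -0.01 over all tested genes. Leaving out 1 library moved the number called from 18 to 10, 8 and 9 without knockouts 1, 2 and 3, to 11 without control 1 and to 30 without control 3. Chromosome 6 held 4 of the 11 that fell (EZR, POPDC3, RAB32 and WASF1) and chromosome 17 held 1 (CSNK1D). Over all tested genes, 40.7% fell on chromosome 6, 43.5% on chromosome 17 and 9.66% elsewhere. The 5 calls that held in every alternative were those of EZR, WASF1, POPDC3, AREG and GPR161, and the other 13 were lost in at least 1. Single lists hold few tested genes. Their counts below stand beside 9.58% of all tested genes called higher and 13.3% called lower, and nothing is read from them.

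Among 13 further AKAP genes, 4 were tested. GPR161, a ciliary receptor that also binds PKA, rose from 1.58 ± 0.114 to 2.45 ± 0.164 FPKM (SD, n = 3; log2 difference 0.42, limma adjusted p = 0.00405), and 3 did not pass. AKAP8L, the relative of AKAP8, was at 106.9% of control and PALM2AKAP2 at 102.8%. AKAP5, AKAP6 and AKAP3 were under 1 FPKM, and AKAP4 and AKAP14 were listed at 0 in all libraries. Of 9 tested proteins that bind PKA beside another main role, 3 fell and 6 did not pass. EZR (ezrin), the linker of membrane and actin, measured 134.9, 141.7 and 128.2 FPKM in controls 1 to 3 and 85.4, 86.2 and 86.9 FPKM in knockouts 1 to 3, 63.9% of control (limma adjusted p = 0.000609). WASF1, an actin regulator, stood at 68.2% (limma adjusted p = 0.00168), and RAB32, a GTPase of mitochondria and lysosome-related organelles, at 67.4% of control (limma adjusted p = 0.0249). The RAB32 call was lost without knockout 1 (0.066) or knockout 2 (0.133) and without the filter (0.0632). ACBD3 and PJA2, a Golgi protein and a ubiquitin ligase that acts on PKA regulatory subunits, were at 95.2% and 100.3% of control and did not pass.

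Of 6 other PKA subunits and inhibitors tested, 1 rose, 1 fell and 4 did not pass. PRKAR1B, the second type I regulatory subunit, went from 13.4 ± 0.817 to 16.1 ± 0.779 FPKM (SD, n = 3; 120.7% of control, limma adjusted p = 0.0402). That call was lost on leaving out knockout 1, 2 or 3 or control 1 or 2 (limma adjusted p between 0.0661 and 0.149), after rescaling every library to the same FPKM sum (TPM, 0.101) and after a correction for GC content and length (0.233, or 0.327 if blocked by replicate number), which took the log2 difference from 0.25 to 0.09. PKIA, a peptide inhibitor of the catalytic subunit, fell to 68.3% of control (limma adjusted p = 0.00717), but did not pass after that correction, which took the log2 difference from -0.40 to -0.21 (0.0765, and 0.0748 when the block was added). PRKAR2A was at 93.8% and PRKACB at 88.1% of control without passing, and the correction took PRKACB from -0.16 to -0.02 on the log2 scale. Without control 3 PRKAR2A passed as lower, with log2 difference -0.18 (limma adjusted p = 0.0449).

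Upstream of PKA, 1 of 5 tested genes of cAMP synthesis rose, 2 of 4 Gs-coupled receptors rose, and 0 fell in either list. Of all tested genes 9.58% rose and 13.3% fell, and with 4 or 5 genes tested no direction is read from these counts. ADCY7, an adenylyl cyclase, stood at 133.3% of control (limma adjusted p = 0.0262), with a log2 difference of 0.39, or 0.24 after the GC and length correction (0.017). GNAS, the stimulatory G protein subunit, and ADCY3, another cyclase, were at 106.8% and 120.7% and did not pass, but GNAS passed as higher without control 3 (limma adjusted p = 0.0406), with the opposite sign after the GC and length correction (log2 difference -0.15, 0.358), and ADCY3 without control 2 (0.0458). The log2 difference of ADCY3 went from 0.28 to 0.12 after that correction (limma adjusted p = 0.361) and to 0.12 without control 3 (0.130). PTGER4, a prostaglandin E receptor, and MC1R, the melanocortin receptor, rose to 133.3% and 140.7% of control (limma adjusted p = 0.015 and 0.0355). ADORA2B, an adenosine receptor, was at 90.3% without passing, and its sign turned after that correction (log2 difference 0.02). The ADCY7 call was lost without any 1 of the knockout libraries (limma adjusted p between 0.0747 and 0.110), without the filter (0.0556) and as TPM (0.0523). That of PTGER4 was lost without knockout 1, knockout 3 or control 1 (between 0.0592 and 0.0838). MC1R lost its call in 8 of the 12 alternatives, among them without any 1 of the knockout libraries or control 1, and the GC and length correction took its log2 difference from 0.34 to 0.17 (0.126, or 0.121 if blocked).

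Only 2 of 16 cAMP phosphodiesterase genes, which break cAMP down, were tested. PDE7A rose to 121.4% of control (limma adjusted p = 0.0387), a call lost without the filter (0.0507), as TPM (0.138), and on leaving out knockout 1, 2 or 3 or control 1 or 2 (between 0.0564 and 0.158). PDE8A was at 97.6% and did not pass, and PDE4A, with a mean under 1 FPKM, was not tested. Among 5 effectors of cAMP other than PKA, POPDC3, a membrane protein that binds cAMP, was the only 1 tested. It fell to 51.6% of control (limma adjusted p = 0.000342) and lies on chromosome 6. RAPGEF3 and RAPGEF4, exchange factors opened by cAMP, were under 1 FPKM.

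Downstream, 1 of 8 CREB factors and coactivators fell and 7 did not pass. That gene was CREM, a transcription factor of the CREB family, at 67.9% of control (limma adjusted p = 0.0137, and 0.0757 without knockout 2). ATF1 and CRTC2, a partner and a coactivator of CREB, were at 85.6% and 115.0% without passing. The GC and length correction turned the sign of ATF1, from -0.21 to 0.10 on the log2 scale, and took CRTC2 from 0.19 to 0.08. Of 8 tested CREB target genes, 1 rose, 2 fell and 5 did not pass. AREG, the EGF receptor ligand amphiregulin, measured 122.9, 122.9 and 148.5 FPKM in controls 1 to 3 and 80.1, 74.5 and 83.2 FPKM in knockouts 1 to 3, 60.3% of control (limma adjusted p = 0.00124). RGS2, which limits G protein signalling, fell to 70.4% (limma adjusted p = 0.0182, and 0.0922 without knockout 2), its log2 difference going from -0.46 to -0.24 after that correction (0.0189). NR4A1, a nuclear receptor of early response, rose to 134.3% (limma adjusted p = 0.0377). The NR4A1 call was lost in 7 of the 12 alternatives, among them without knockout 2, knockout 3 or control 1 (between 0.123 and 0.151), and the GC and length correction took its log2 difference from 0.34 to 0.14 (0.347, or 0.133 if blocked). FOS, an early response factor, measured 64.8, 59.9 and 95.6 FPKM in knockouts 1 to 3 and 38.0, 42.9 and 66.5 FPKM in controls 1 to 3. Its groups overlapped and it did not pass (limma adjusted p = 0.0828), but with the replicate number as a block it did (0.00164), as it did without control 3 (0.000146). DUSP1, a MAP kinase phosphatase at 125.8% of control, also did not pass but did so in those alternatives (limma adjusted p = 0.155, 0.0219 with the block and 0.00128 without control 3).

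Of 13 tested enzymes that AKAPs hold beside PKA, 3 fell, 0 rose and 10 did not pass. CSNK1D, a casein kinase, fell to 75.9% of control (limma adjusted p = 0.00718, and 0.0502 without knockout 3), with a log2 difference of -0.38, which the GC and length correction moved to -0.59 (0.00173). PPP1CB, a catalytic subunit of protein phosphatase 1, fell to 77.4% (limma adjusted p = 0.0218), and PPP3CB, a catalytic subunit of calcineurin, to 78.3% (0.0242). Both of the latter calls were lost without any 1 of the knockout libraries or control 1 (limma adjusted p between 0.0544 and 0.103), and PPP1CB stood at log2 difference -0.17 (0.0572) after the GC and length correction against -0.36 before it. The same correction took PPP3CB from -0.32 to -0.21, where it passed (0.0403) unless the block was added (0.0552). PPP1CA and RHOA, a phosphatase subunit and a GTPase, were the most abundant of those that did not pass, at 108.6% and 97.7% of control, and PPP1CA passed as higher without control 3 (limma adjusted p = 0.00939), its log2 difference of 0.12 becoming 0.21 there and 0.04 after the GC and length correction. Among the named genes that did not pass, the sign also turned in at least 1 alternative for AKAP8L, PALM2AKAP2, ACBD3, PJA2, PDE8A and RHOA.

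**Figure D5:**
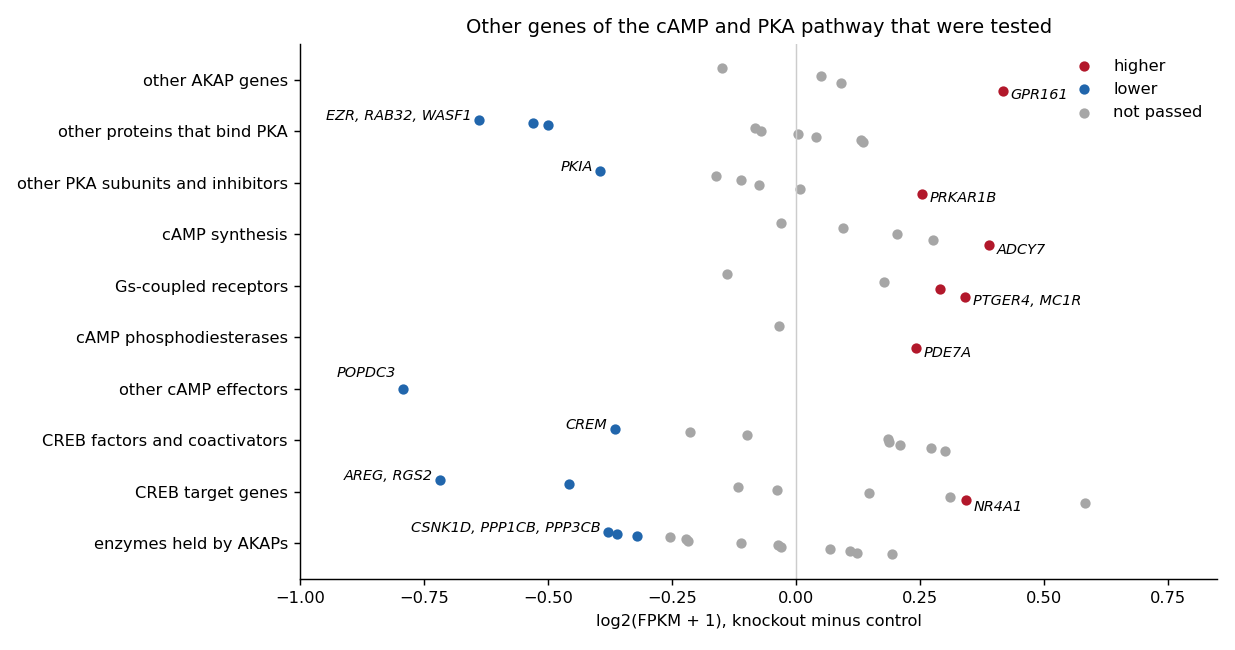
Difference in log2(FPKM + 1), knockout minus control, for each tested gene of the 10 lists, with red for genes called higher, blue for lower and grey for those that did not pass. Names label the called genes from left to right. EZR and POPDC3 are among the farthest to the left at -0.64 and -0.79, and GPR161 is the farthest called gene to the right at 0.42.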

How the data were processed

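Expression was measured by RNA sequencing after poly(A) selection in 6 HaCaT libraries, grouped by sample title into 3 knockout and 3 control libraries. The authors deposited FPKM values per Ensembl gene. Per the submitters' processing notes, the build was GRCh38.p13 and the tools were HISAT2 2.0.5, Trimmomatic 0.36, Cufflinks, featureCounts 1.6.3 and edgeR 3.6.3, with no roles stated. For annotation release and strandedness the sources used here give nothing. Reads from overlapping genes may therefore be mixed. In GENCODE 29, 4.70%, 2.00%, 1.59% and 0.986% of the exonic bases of AKAP13 overlap different genes on the other strand. The overlap with a gene on the other strand is 4.23% for AKAP7, 4.00% for AKAP8 and 2.15% for AKAP1. For PRKAR1A, 8.00% overlap a gene on the same strand.

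FPKM is no count, so no count test was run. Whole reads could not be recovered (59.1% to 65.1% of low values were whole within 0.15 reads, depending on the library), so the depth behind a value is unknown and no counting interval is given.

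Gene symbols were looked up by Ensembl identifier (19991 genes) and GENCODE 29 (23 genes), coordinates from GENCODE 29 on GRCh38. Genes with a mean of at least 1 FPKM were fitted as log2(FPKM + 1) with limma 3.58.1 in R 4.3.3 (pseudocount 1, intensity trend, genotype as the sole term, Benjamini-Hochberg threshold 0.05), a scale that understates changes of low genes. The script was tested on simulated data. Neighbours are tested genes whose starts lie within 5 Mb.

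The members and lists were chosen with earlier results of these data known. Named genes are the members, STUB1, up to 4 called genes with the smallest p and 2 further genes with the highest mean per list, and up to 2 called neighbours with the smallest p per member. The result of 1 gene named by this rule is not reported here. CDA, MTHFD1L, ZBTB2, single cell type markers and list genes named as at 0 or under 1 FPKM by other rules were chosen after their values were seen. Deviations from the group means correlated between same-numbered libraries at 0.375, 0.150 and 0.188, all over 0.1. On that basis replicate numbers may be pairs, although no shared day or batch is labelled. The main fit, which gave the calls reported, does not use them. The replicate block is an alternative, in which 3051 of all tested genes were called against 2579 in the main fit. Alternatives were a pseudocount of 0.1, no filter, TPM rescaling, the replicate block, a spline correction for GC content and exonic length with and without the block, leaving out each library, and windows of 2 and 10 Mb.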

Additional observations from a re-analysis of the deposited data

How the results depend on the processing

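Of 108 log2 values of the 9 tested members under 12 alternatives each, 102 moved by less than 1 SD. The other 6 were AKAP12, whose value depends on the pseudocount because its knockout libraries are at 0 (-4.92 with 0.1 and -2.99 as TPM, against -1.97), and, after the GC and length correction with or without the replicate block, AKAP13 (-0.06 against 0.09) and PRKAR1A (-0.46 against -0.58). The signs of AKAP9, AKAP11 and AKAP13 did not hold in every alternative. With the replicate block 1 member, PRKACA, was called higher, where 0 were without it, and FOS and DUSP1 passed; added to the fit as reported it ended no call among the genes named, and added to the GC and length correction it ended that of PPP3CB (adjusted p 0.0403 to 0.0552, limma). Leaving out 1 library gave 2 to 5 members called, 0 to 1 higher and 2 to 4 lower, 8 to 30 list genes called, 1 to 13 higher and 6 to 17 lower, and 1030 to 4521 of all tested genes, 391 to 2103 higher and 639 to 2418 lower. List genes called higher went from 7 to 4 without the filter and to 2 as TPM. As TPM, which moved the median of all genes from -0.01 to -0.05 on the log2 scale, all genes called higher went from 1079 to 667 and their share of calls from 41.8% to 29.1%. Relative to the median of its neighbours, AKAP9 went from 3.78 to -10.0 percentage points with a window of 10 Mb, and PRKAR1A from -8.53 to 0.152 with a window of 2 Mb; the cause was not tested. Depth is unknown, so values under 1 FPKM, AKAP7 among them, have no stated counting error.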
